A study of Mus musculus with 4 samples.

Results

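The transcription factors described here act in the goblet and Paneth fates of the intestinal epithelium. They are Spdef, Creb3l1, Creb3l4, Xbp1, Foxa1, Foxa2, Foxa3, Sox4, Gfi1 and Klf4, chosen by symbol for their textbook roles. All 10 were found among the 31040 genes of the count tables. The cells came from organoids, epithelial cultures grown from intestinal crypts, of 2 mice aged 10 weeks that carried Cbl flox/flox and Cbl-b flox/flox alleles and R26Cre ERT2. Control organoids were grown without 4-hydroxytamoxifen, and knockout organoids received it for 3 days (400 nM), which deletes Cbl together with Cblb, so that the control cells carry the same floxed alleles and Cre as the knockout cells. Exposure to the drug and the deletion cannot be told apart in this design. Each group had 2 libraries, and the control and knockout libraries with the same number came from the same mouse, per the tags on the deposited tables.

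Secretory cells of the gut arise when a dividing progenitor escapes Notch signalling and switches on Atoh1. Sox4, Gfi1 and the FOXA factors act early in or downstream of that switch, and Spdef and Klf4 drive goblet and Paneth maturation. Xbp1, Creb3l1 and Creb3l4 are bZIP factors that enlarge the endoplasmic reticulum and the secretory path, which secretory cells need for mucus and antimicrobial proteins.

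The 4 libraries held 5602 cell barcodes and 22139560 to 35592468 UMIs each, a UMI being a tag that counts 1 RNA molecule. After removal of 173 barcodes with under 500 genes and 70 likely doublets, 5359 cells remained, with a median of 16071 to 27457.5 UMIs per cell by library. Only 2 barcodes were shared between libraries. Clusters were named from marker lists, and a name ending in "-like" means no more than that. Markers of erythroid cells were at 0 in every library, 2 of the 5 endothelial markers were detected, at a summed 0.32 to 0.609 CPM (UMIs scaled to a common library total), and the summed immune list reached 4.53 to 8.37 CPM. Cbl was at 17.0 and 19.9 CPM in the control libraries and at 12.3 and 10.5 CPM in the knockout libraries, and Cblb at 8.51 and 3.93 against 3.35 and 0.464 CPM. The counts do not separate reads inside and outside the deleted exons, so both values are only a partial check of the deletion.

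The genes lie on 9 chromosomes in GRCm38, with Creb3l1 at chr2:91982328-92024502, Spdef at chr17:27714352-27728955 and Sox4 at chr13:28948919-28953713, all on the minus strand. RefSeq promoter windows (GRCm38.p6, 250 bases before to 50 after the start) were matched by symbol for 9 of the 10 genes, in 14 windows. Both strands were searched for 5 short motifs: an E-box (CAGCTG), a forkhead motif (TGTTTAC), the core of cAMP-response and unfolded-protein elements (TGACGT), a KLF motif (GGGTGTG) and a Gfi1 motif (AATCACTGC). The 2 promoters below hold the rarest matches among these genes, TGACGT in Spdef, which 7.51% of all 32851 windows hold, and TGTTTAC in Foxa1, which 3.65% hold. They are written 5′ to 3′ on the gene's strand, with matches to any of the 5 motifs in capitals. The Spdef window is chr17:27728902-27729201 and the Foxa1 window is chr12:57546062-57546361.
Spdef: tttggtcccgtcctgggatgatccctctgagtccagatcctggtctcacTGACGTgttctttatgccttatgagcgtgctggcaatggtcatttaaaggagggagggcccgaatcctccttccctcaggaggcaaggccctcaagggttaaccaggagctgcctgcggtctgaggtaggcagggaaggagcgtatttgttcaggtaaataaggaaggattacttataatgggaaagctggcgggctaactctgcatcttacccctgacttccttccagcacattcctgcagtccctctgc
Foxa1: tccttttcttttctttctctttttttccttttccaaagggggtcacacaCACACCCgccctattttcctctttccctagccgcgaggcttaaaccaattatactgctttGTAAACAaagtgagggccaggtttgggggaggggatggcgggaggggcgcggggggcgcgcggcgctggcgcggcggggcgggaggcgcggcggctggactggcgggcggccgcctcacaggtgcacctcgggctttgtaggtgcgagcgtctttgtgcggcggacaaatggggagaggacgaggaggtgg
The capitals in Foxa1 also mark a KLF match, which Foxa3 and 1 of the 3 Creb3l4 windows hold too, against 7.95% of all windows. The E-box was in Klf4 and Sox4, against 16.3% of all windows, and the Gfi1 motif was in none of these genes' windows, against 0.253% of all. A match describes the letters only.

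Across 7 marker-named classes, 7 of the 10 factors had their highest mean level in goblet-like cells and 3 in enteroendocrine-like cells. Levels are CPM of UMIs summed over the cells of a class in 1 library. They are a description with no test, because the clusters were built from the same cells, although the 10 genes themselves were left out of the clustering. The goblet-like and Paneth-like classes are not a clean contrast of 2 cell types. Summed goblet markers overlapped between them, at 24562 to 41562 CPM by library in goblet-like cells and 37023 to 41630 CPM in Paneth-like cells. Libraries differed in the shares of classes, and a sum over all cells follows those shares: goblet-like cells numbered 178, 88, 148 and 262 in control 1, control 2, knockout 1 and knockout 2, the order used for all sets of 4 values below. The 9 Paneth markers alone summed to 378133, 354334, 400238 and 311289 CPM in Paneth-like cells. In goblet-like cells they summed to 75445, 95839, 45095 and 64020 CPM. These UMIs are part of the total and lower the CPM of every other gene, most in Paneth-like cells. Orders of goblet-like over Paneth-like cells below hold for CPM of all UMIs only, and levels without these UMIs were not computed.

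**Figure D1:**
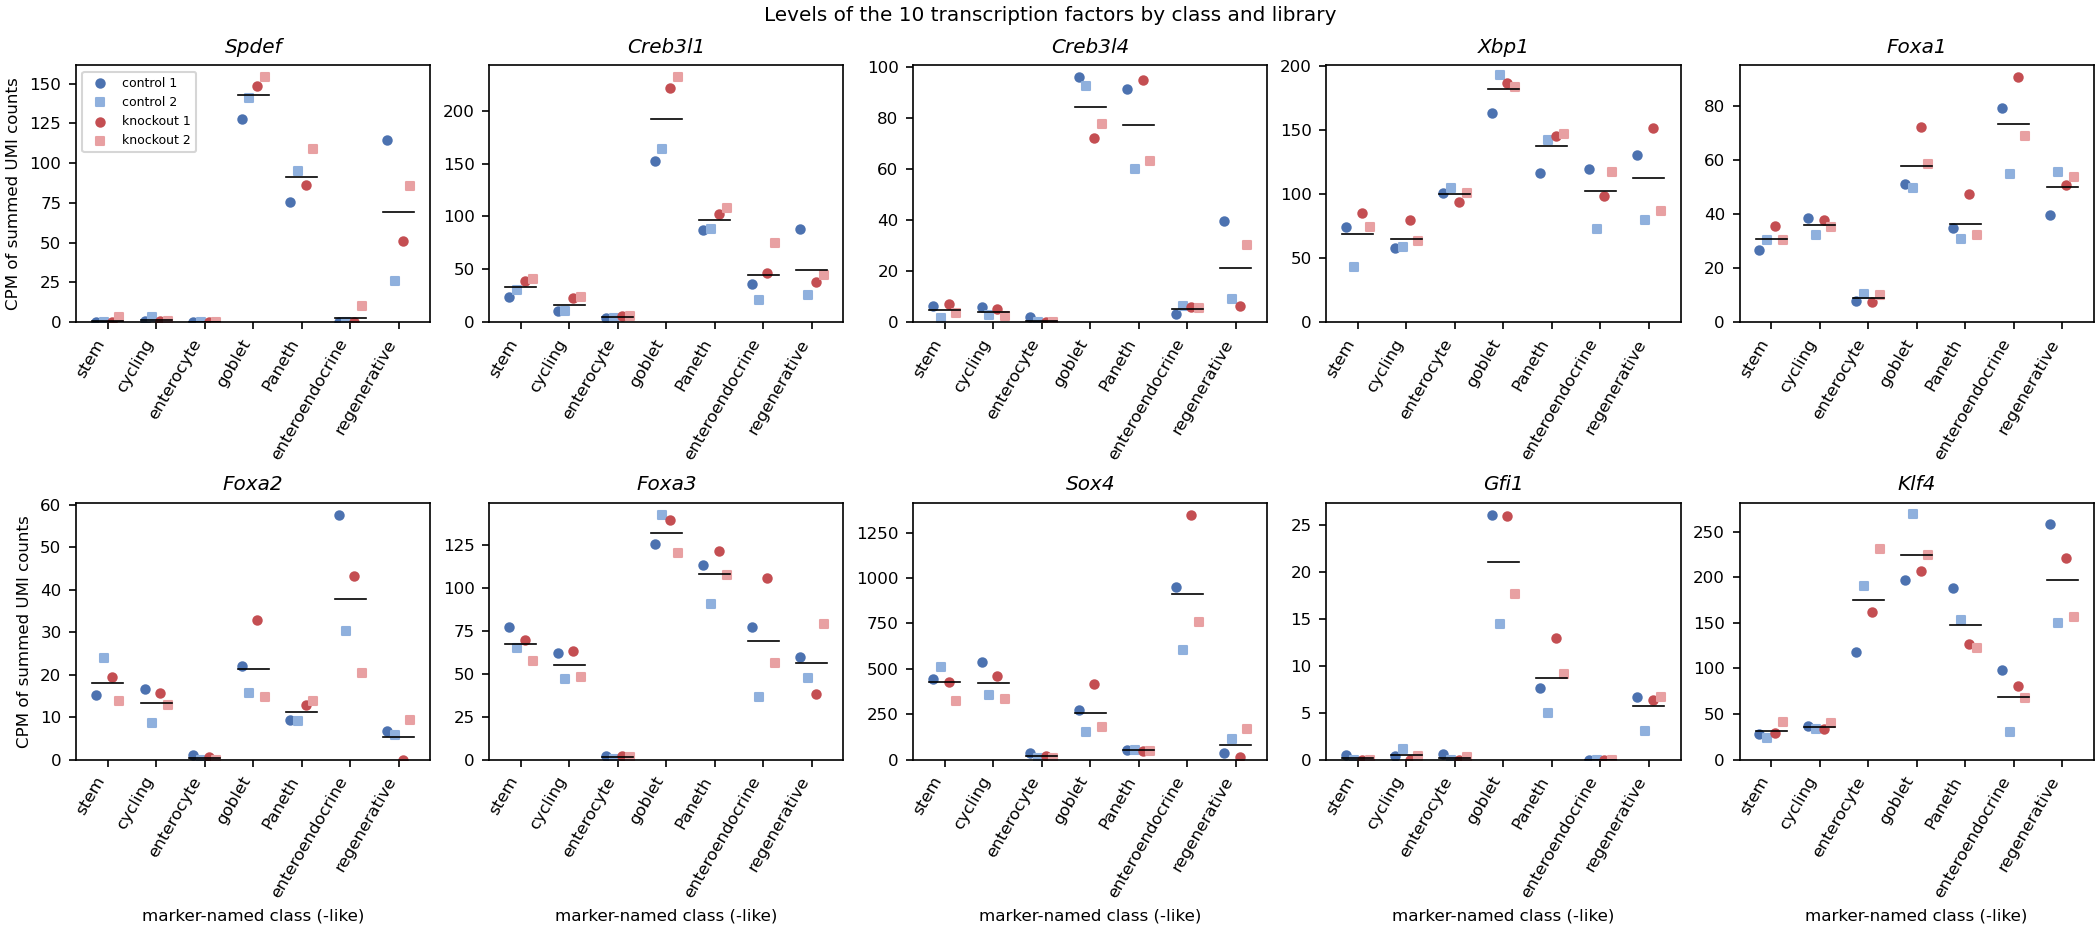
CPM of summed UMI counts (linear axis from 0, its range set per gene) for each of the 10 transcription factors in 7 marker-named classes; each point is 1 library and the line is the mean of the 4. Spdef, Creb3l1 and Gfi1 stand highest in goblet-like cells in every library, and Sox4 in enteroendocrine-like cells.

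Spdef, an ETS factor of goblet and Paneth maturation, was at 128, 141, 148 and 154 CPM in goblet-like cells and at 75.8, 94.8, 86.3 and 109 CPM in Paneth-like cells. Regenerative-like cells, which have goblet genes among their leading genes, varied more, at 115, 25.9, 50.7 and 85.8 CPM. No Spdef UMI was found in 988 enterocyte-like cells, which allows a share of up to 0.304% of cells with a UMI. In stem-like cells its mean was 0.842 ± 1.41 CPM and in cycling-like cells 1.20 ± 1.28 CPM (SD, n = 4). Spdef was detected in 73.0% to 86.4% of goblet-like cells by library, and in 45.2% to 57.7% after cells were thinned to 5000 UMIs. Thinning left out the cells with fewer UMIs, so that 157, 78, 126 and 229 goblet-like cells remained. The genes with the most similar pattern over 29 class-by-library sums were Tpsg1, Spats2l and Pla2g10, with Pearson r of 0.98, 0.97 and 0.97. Sums of 1 library share its depth, and these correlations, across 9435 genes, are a description.

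Gfi1, a zinc finger repressor that acts with Atoh1 in secretory precursors, followed the same order at a lower level. Its counts gave 26.1, 14.5, 26.0 and 17.6 CPM in goblet-like cells and 7.66, 4.99, 12.9 and 9.13 CPM in Paneth-like cells. In every library the goblet-like value was the higher. No Gfi1 UMI was found in enteroendocrine-like cells. Its nearest genes by pattern were Tpsg1, Spdef and Ccl6, with r of 0.96, 0.94 and 0.93.

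Creb3l1, an endoplasmic-reticulum-anchored bZIP factor, was at 152, 164, 222 and 232 CPM in goblet-like cells and at 86.8, 87.8, 102 and 108 CPM in Paneth-like cells. Unlike Spdef, it had UMIs in every class, from 3.58 to 5.62 CPM in enterocyte-like cells to 23.99 to 40.8 CPM in stem-like cells. Its nearest genes were Tm9sf3, Pdia5 and Slc12a8, with r of 0.95, 0.95 and 0.95. Creb3l4, its close relative, was at 95.7, 92.2, 72.1 and 77.3 CPM in goblet-like cells and at 91.1, 59.9, 94.95 and 63.0 CPM in Paneth-like cells. The ranges of these 2 classes overlap, so that their order was not resolved for Creb3l4. Its nearest genes were Itln1, Lbh and Atoh1, with r of 0.96, 0.94 and 0.94.

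Xbp1, the unfolded-protein-response factor that Ern1 and Ern2 activate by splicing, was the most even of the 10. Its mean was 182 ± 12.9 CPM in goblet-like cells, 138 ± 14.4 in Paneth-like cells, 100.2 ± 4.76 in enterocyte-like cells and 65.0 ± 10.3 in cycling-like cells (SD, n = 4). The goblet-like values, from 163 to 193 CPM, lay above all Paneth-like values, from 117 to 147 CPM. That order holds for CPM of all UMIs and was not tested without the Paneth marker UMIs, which fill much of the Paneth-like total. Hspa5 and Dnajc3, both chaperone genes of the endoplasmic reticulum, and Sec61g had the most similar patterns, with r of 0.94, 0.93 and 0.88. UMI counts per gene do not tell spliced from unspliced Xbp1 RNA.

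The 3 FOXA pioneer factors differed in pattern. Foxa3 was at 126, 143, 140 and 121 CPM in goblet-like cells and at 113, 90.8, 122 and 107 CPM in Paneth-like cells, and near 0 in enterocyte-like cells, where it did not exceed 1.95 CPM. Foxa1 was highest in enteroendocrine-like cells, at 79.4, 54.7, 91.0 and 68.8 CPM, with 51.2, 49.5, 72.1 and 58.5 CPM in goblet-like cells. The enteroendocrine-like value was the higher in all 4 libraries, although the ranges overlap. Foxa2 was at 57.6, 30.4, 43.3 and 20.3 CPM in enteroendocrine-like cells and at 22.0, 15.7, 32.9 and 14.7 CPM in goblet-like cells. All 3 were present in cycling-like cells, where Spdef and Gfi1 were nearly absent. Foxa3 was the highest of the 3 there, at 62.2, 46.9, 63.4 and 48.1 CPM. Cycling-like means were 36.0 ± 2.73 CPM for Foxa1 and 13.4 ± 3.68 CPM for Foxa2 (SD, n = 4).
The genes nearest in pattern were Tmem63a, Slc48a1 and Gna12 for Foxa1 (r 0.93, 0.93 and 0.93), Stk39, Acly and Ephb3 for Foxa2 (r 0.94, 0.92 and 0.92) and Tmed9, Pkp1 and Qtrt1 for Foxa3 (r 0.96, 0.93 and 0.93).

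Sox4, an SRY-related factor of early progenitors and of endocrine and tuft cells, had the highest level of the 10 in stem-like, cycling-like and enteroendocrine-like cells; UMI counts were not divided by gene length, so this order between genes describes counted molecules. It was at 953, 602, 1347 and 757 CPM in enteroendocrine-like cells, at 539, 353, 461 and 334 CPM in cycling-like cells, and at 275, 151, 418 and 178 CPM in goblet-like cells. Paneth-like cells held 51.4 ± 3.42 CPM (SD, n = 4). In goblet-like and enteroendocrine-like cells both libraries of mouse 1 exceeded both libraries of mouse 2. The 31 tuft-like cells were too few for a fit, and their Sox4 values were 528, 581, 1563 and 353 CPM. Its nearest genes were Klhdc2, Smarcc1 and Cnn3, with r of 0.96, 0.96 and 0.96.

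Klf4, a zinc finger factor of differentiated epithelium, was high in goblet-like cells (197, 269, 207 and 224 CPM) and in enterocyte-like cells (118, 190, 162 and 231 CPM). Regenerative-like cells, a class with Anxa1 and Clu but also the goblet genes Zg16 and Clca1 among its leading genes, had 258, 150, 222 and 157 CPM. These 3 ranges overlap. Cycling-like cells had 36.1 ± 3.13 CPM (SD, n = 4). Its nearest genes were Bet1l, Dram2 and Liph, with r of 0.91, 0.91 and 0.89.

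The goblet-like class held 2 clusters that differed in these factors. Cluster 10 had Atoh1, Agr2, Dll1 and Kit among its 10 leading genes, and also 3 of the factors, Spdef, Creb3l1 and Gfi1, while cluster 11 had Ccl9, Ccl6, Muc2 and Fcgbp and none of the factors. Cluster 10 also carried cycling markers, at a summed 1758, 2365, 2452 and 2717 CPM, against 252, 320.03, 244 and 295 CPM in cluster 11 and 3326, 2943, 3566 and 3080 CPM in cycling-like cells. Gfi1 was at 21.7, 18.0, 23.6 and 19.4 CPM in cluster 10, so that this cluster held cycling markers together with Spdef and Gfi1. These are sums over its cells, and whether the same cells held both was not tested. Spdef was at 91.8, 52.4, 125 and 121 CPM in cluster 10 and at 169.9, 169.9, 201 and 201 CPM in cluster 11. Creb3l4 was likewise lower in cluster 10, at 54.3, 55.6, 40.8 and 62.5 CPM, than in cluster 11, at 144, 104, 142 and 99.1 CPM. Sox4 had the opposite order, with 404, 396, 553 and 234 CPM in cluster 10 and 125, 71.6, 119 and 94.9 CPM in cluster 11. For each of these 3 genes the ranges of the clusters did not overlap. Cluster 10 held 57, 16, 72 and 121 cells and cluster 11 held 121, 72, 76 and 141, so that cluster 10 made up more of the class in both knockout libraries. Over the whole goblet-like class the cycling markers were at 1063 and 823 CPM in control and at 1766 and 1733 CPM in knockout.

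The comparison of knockout with control asks what loss of Cbl and Cblb, a pair of ubiquitin ligases that restrain receptor tyrosine kinase signalling, changes in these factors. Of the 10, Creb3l1 gave the largest difference among those called, and it was in cycling-like cells. In cycling-like cells Creb3l1 was at 10.1 and 10.3 CPM in the control libraries and at 22.4 and 23.3 CPM in the knockout libraries, from 104, 76, 287 and 340 UMIs. The groups did not overlap, and both mice gave a higher knockout value. The fitted log2 fold change was 1.13 ± 0.14 (SE, edgeR's quasi-likelihood test), with an adjusted p of 0.28 in the fit with group alone and 0.00013 (1.13 ± 0.13) in the fit with the mouse as a replicate block. With 2 libraries a group, p-values rest on a spread borrowed across genes.

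With the block, 1 of the 8 factors tested in cycling-like cells was called, against 6.6% of all 11282 genes. With group alone no gene was called there (0%), while 861 genes had an unadjusted p under 0.05. DESeq2 called Creb3l1 with group alone, at an adjusted p of 0.0098. Cycling-like cells fell into 3 clusters whose mix differed between libraries, and Creb3l1 was higher in both knockout libraries in each of them. It was at 10.4, 10.1, 22.1 and 25.7 CPM in cluster 5. In cluster 9 it was at 7.88, 10.4, 20.3 and 22.7 CPM, from 6, 41, 42 and 199 UMIs. The shallow cluster 13 gave 4.06, 9.65, 33.6 and 15.7 CPM from only 1, 1, 24 and 14 UMIs. The share of cycling-like cells with a Creb3l1 UMI was 27.7%, 29.1%, 35.2% and 36.3%, although the knockout cells were shallower, with a median of 38874, 56372, 27402 and 26698.5 UMIs. After thinning to 5000 UMIs it was 6.10%, 4.20%, 10.4% and 11.2%, beside 0.546%, 1.47%, 4.76% and 1.90% of enterocyte-like cells. Cells with fewer UMIs were left out, and of 204 enterocyte-like cells of knockout 1 only 105 remained.

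**Figure D2:**
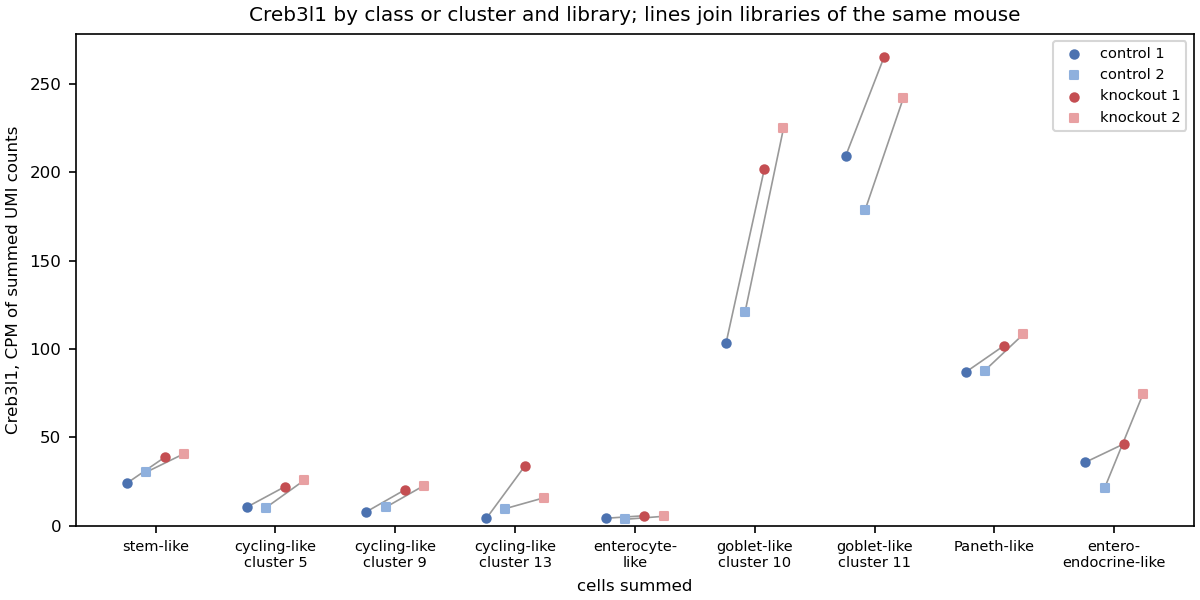
Creb3l1 in CPM of summed UMI counts (linear axis from 0) by class or cluster; each point is 1 library and grey lines join the control and knockout libraries of 1 mouse. The 8 lines of the 3 cycling-like clusters and of goblet-like cluster 10 all rise from control to knockout, as do those of the other cells drawn. In cluster 13 each control point is 1 UMI.

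In goblet-like cells the Creb3l1 groups also did not overlap, at 152 and 164 CPM in control and 222 and 232 CPM in knockout. The log2 fold change was 0.43 ± 0.14 (adjusted p 0.19, edgeR, group alone) and 0.42 ± 0.10 with the replicate block (adjusted p 0.00091, edgeR). Creb3l4 went the other way, from 95.7 and 92.2 CPM to 72.1 and 77.3 CPM, with a log2 fold change of -0.42 (adjusted p 0.20, edgeR, group alone) and -0.43 with the block (adjusted p 0.0058, edgeR). Sox4 was called too with the block, at 0.34 ± 0.10 (adjusted p 0.0097, edgeR), but its groups overlapped and the difference lay mainly in mouse 1, from 275 to 418 CPM, against 151 to 178 CPM in mouse 2. Without knockout 1 the Sox4 value was -0.30 (adjusted p 0.55, edgeR, group alone), and with the 10 genes kept in the clustering it was -0.11. At Leiden resolution 1.5, where goblet-like cells numbered 124 instead of 676, Creb3l1 was -0.25 and Creb3l4 0.19 on the log2 scale with group alone. In all, 3 of 10 factors were called with the block, against 16.7% of 10220 genes, and none with group alone, against 0.215% of genes. DESeq2 with the block called neither Creb3l1 nor Creb3l4, with adjusted p of 0.17 and 0.40.

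Because the mix of goblet-like clusters differed, each was also fitted alone, a choice made after the data were seen. In cluster 10 Creb3l1 was at 103 and 121 CPM in control and at 202 and 225 CPM in knockout, and it rose by 0.94 ± 0.16 with group alone (adjusted p 0.038, edgeR) and by 0.90 ± 0.13 with the block (adjusted p 0.0018, edgeR). Within cluster 10 the cycling markers were higher in knockout in each mouse, and the stem markers lower, at 2294, 1828, 1892 and 910 CPM; the part of either in the Creb3l1 result was not tested. Creb3l1 was the only one of the 10 factors called in cluster 10, where 0.304% of 9547 genes were called with group alone and 2.11% with the block. The call with group alone was lost without control 1 (adjusted p 0.12) or without knockout 2 (adjusted p 0.74, edgeR). Xbp1 in cluster 10 was at 127, 115, 178 and 180.4 CPM, groups that did not overlap, but the adjusted p was 0.058 with the block (edgeR). Spdef there had an adjusted p of 0.070 with the block, with a log2 difference of 0.66 ± 0.18 (edgeR). In cluster 11 none of the factors was called, against 0% of 8813 genes with group alone and 2.62% with the block. Creb3l1 there was at 209, 178, 265 and 242 CPM (adjusted p 0.15 with the block, edgeR). Creb3l4 overlapped between groups in both clusters, at 54.3, 55.6, 40.8 and 62.5 CPM in cluster 10 and 144, 104, 142 and 99.1 CPM in cluster 11. Its lower sum over the class moved with the larger share of cluster 10; the part of that share in the result was not tested.

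**Figure D3:**
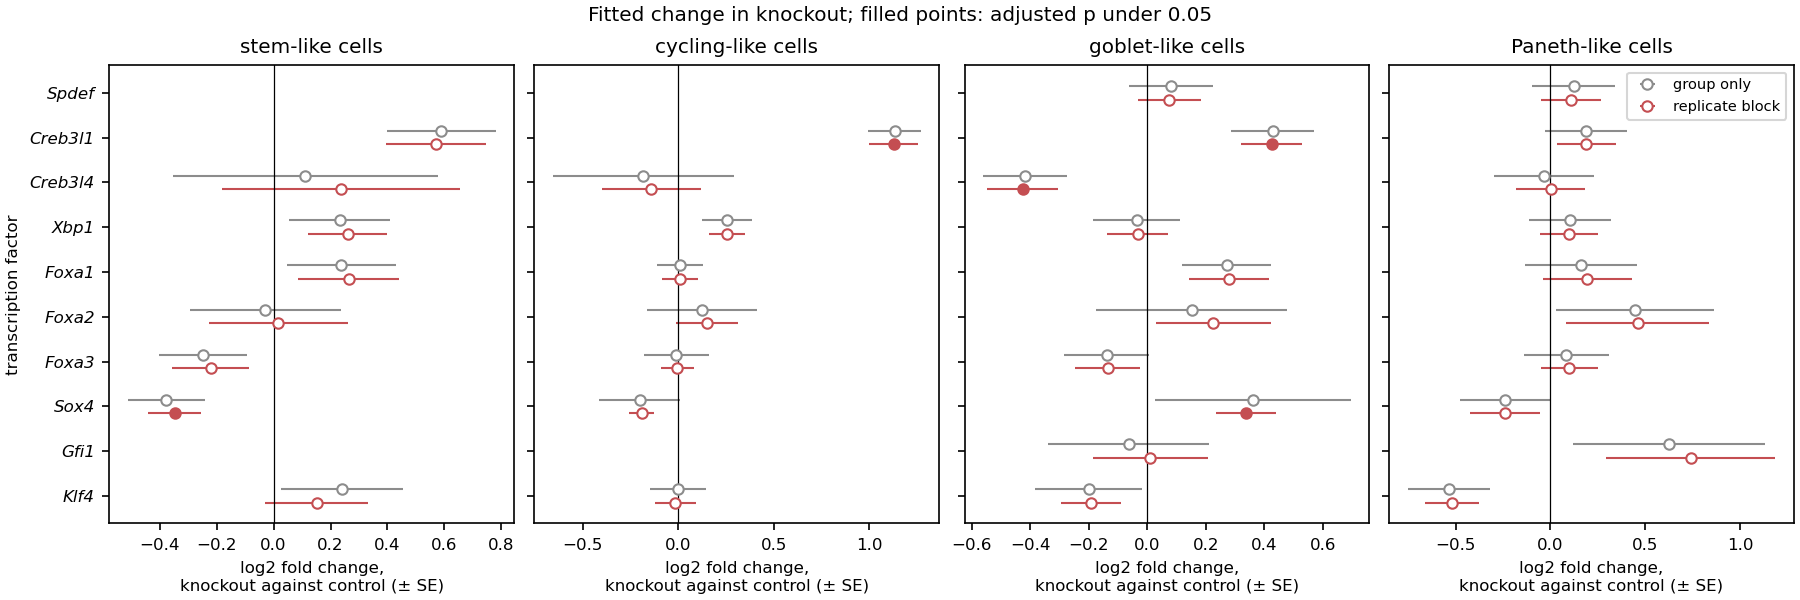
Log2 fold change of knockout against control with its SE for each factor tested, in 4 classes, from the fit with group alone (grey) and with the replicate block (red); filled points have an adjusted p under 0.05. Filled points are Creb3l1 in cycling-like and goblet-like cells, Creb3l4 and Sox4 in goblet-like cells and Sox4 in stem-like cells, all with the block.

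In stem-like cells Sox4 fell with the block, by 0.35 on the log2 scale (adjusted p 0.026, edgeR), from 443 and 507 CPM to 426 and 324 CPM. Control 2 gave only 17 stem-like cells, and without it the value was -0.28 with group alone (adjusted p 0.58, edgeR). Under each of the 4 other clusterings Sox4 was no longer called with the block. Creb3l1 was higher in both knockout libraries, at 38.9 and 40.8 CPM against 23.99 and 30.2 CPM, but missed the threshold with an adjusted p of 0.066 (0.57 ± 0.18, edgeR, block). Under the same 4 clusterings with the block Creb3l1 was called in stem-like cells, with log2 fold changes of 0.64 to 0.97 and adjusted p of 0.0018 to 0.037 (edgeR). So 1 of 8 factors was called with the block, against 2.37% of 9705 genes, and none with group alone, against 0%.

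No factor was called in the other classes. With group alone and with the block, the background was 0% and 2.08% of 9743 genes in enterocyte-like cells, 0.0297% and 0.625% of 6725 genes in Paneth-like cells, 0% and 0.158% of 8251 genes in enteroendocrine-like cells, and 0% and 0.133% of 8989 genes in regenerative-like cells. In Paneth-like cells Klf4 was at 188, 154, 127 and 122 CPM, groups that did not overlap, with a log2 difference of -0.52 ± 0.14 and an adjusted p of 0.11 (edgeR, block). Creb3l1 in Paneth-like cells was also higher in both knockout libraries, at 102 and 108 CPM against 86.8 and 87.8 CPM, with an adjusted p of 0.68 (edgeR, block). Summed over all cells, Klf4 was lower in knockout within each mouse, at 85.6 against 64.9 CPM and 119 against 101 CPM, and was the 1 factor of 10 called with the block (-0.36 ± 0.08, adjusted p 0.045, edgeR), against 11.9% of 13246 genes. With group alone and 1 library left out, the Klf4 value ranged from -0.75 without knockout 2 to -0.018 without knockout 1. In enterocyte-like cells Klf4 was instead higher in knockout within each mouse, at 162 against 118 CPM and 231 against 190.3 CPM, with an adjusted p of 0.41 (edgeR, block). With group alone none was called, against 0% of genes, and the Klf4 groups overlapped. Fewer cells of a type and less RNA per cell cannot be told apart in the sum over all cells. Enterocyte-like cells, a class with high Klf4, made up 20.5%, 38.1%, 12.5% and 15.2% of the cells. The part of this share in the Klf4 sum was not tested.

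Whether the response in goblet-like cells differed from that of other classes was tested with an interaction term. Creb3l1 rose less in goblet-like than in cycling-like cells, by a log2 difference of -0.68 ± 0.16 (adjusted p 0.0029, edgeR, block) and of -0.67 ± 0.15 without the block (adjusted p 0.077, edgeR). Sox4 had a difference of 0.58 ± 0.09 for the same 2 classes (adjusted p 3.3e-06, edgeR, block), with lower knockout values in cycling-like cells of both mice, and of 0.99 ± 0.29 between goblet-like and enterocyte-like cells (adjusted p 0.035, edgeR, block). Without the block and with 1 library left out, these Sox4 values fell as low as 0.16 (without knockout 1, adjusted p 0.92, edgeR) and 0.33 (without control 1, adjusted p 1, edgeR), and rose as high as 0.88 (without knockout 2) and 1.41 (without control 2). Spdef gave 1.61 ± 0.44 (adjusted p 0.016, edgeR, block), but in cycling-like cells it had only 5, 23, 6 and 11 UMIs, and without control 2 the value was -0.13 (adjusted p 0.99, edgeR). Against cycling-like cells, 3 of 10 factors were called with the block, against 5.22% of 11160 genes, and none without it, against 0.663%. Against enterocyte-like cells it was 1 of 10 with the block, against 2.1% of 10986 genes, and none without it, against 0%. Against Paneth-like cells no factor was called, against 0.393% of 9680 genes with the block and 0.031% without it.

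A split of cycling-like cells by Atoh1, the switch of the secretory fate, showed which factors were higher in cycling-like cells that carry its RNA. There were 14, 9, 16 and 15 cycling-like cells with an Atoh1 UMI, and each library served as its own control. Of the 8 factors tested, 3 were higher and none lower, against 0.586% of 9899 genes called in either direction; all 8 had a positive log2 difference. Foxa2 was at 41.8, 16.5, 48.2 and 29.6 CPM in cells with an Atoh1 UMI and at 14.9, 7.56, 14.5 and 12.2 CPM in cells without one, a rise of 1.47 ± 0.20 (adjusted p 0.00053, edgeR). Creb3l1 was at 21.6, 33.1, 31.4 and 55.0 CPM against 9.25, 7.56, 22.1 and 22.2 CPM, a rise of 1.31 ± 0.24 (adjusted p 0.0076, edgeR). Foxa1 was at 90.9, 35.6, 48.2 and 69.8 CPM against 34.6, 32.04, 37.4 and 34.2 CPM, a rise of 0.84 ± 0.19 (adjusted p 0.048, edgeR). All 3 were higher in 4 of 4 libraries.

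Foxa2 kept its call when any 1 library was left out, with adjusted p of 0.00025 to 0.023 (edgeR). Creb3l1 lost it without knockout 2 (adjusted p 0.11), and Foxa1 lost it without control 1 (0.58), knockout 1 (0.098) or knockout 2 (0.37, all edgeR). Sox4 was higher in both libraries of mouse 1, at 1212 and 856 CPM against 491 and 446 CPM, but not in mouse 2, at 367 and 307 CPM against 352 and 335 CPM, and had an adjusted p of 0.075 (edgeR). Cells with an Atoh1 UMI held 1, 22, 2 and 3 Spdef UMIs, most of them in the 9 cells of control 2, which also had 736 CPM of Lyz1, a Paneth product, against 104 CPM in that library's other cycling-like cells. A cell sequenced more deeply is more likely to show an Atoh1 UMI: the median depth was 41871 UMIs with and 38673 without one in control 1, 85468 and 55695 in control 2, 26461.5 and 27436 in knockout 1, and 27960 and 26606 in knockout 2. The part of depth, and of cells of another type sharing a droplet, in these differences was not tested.

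**Figure D4:**
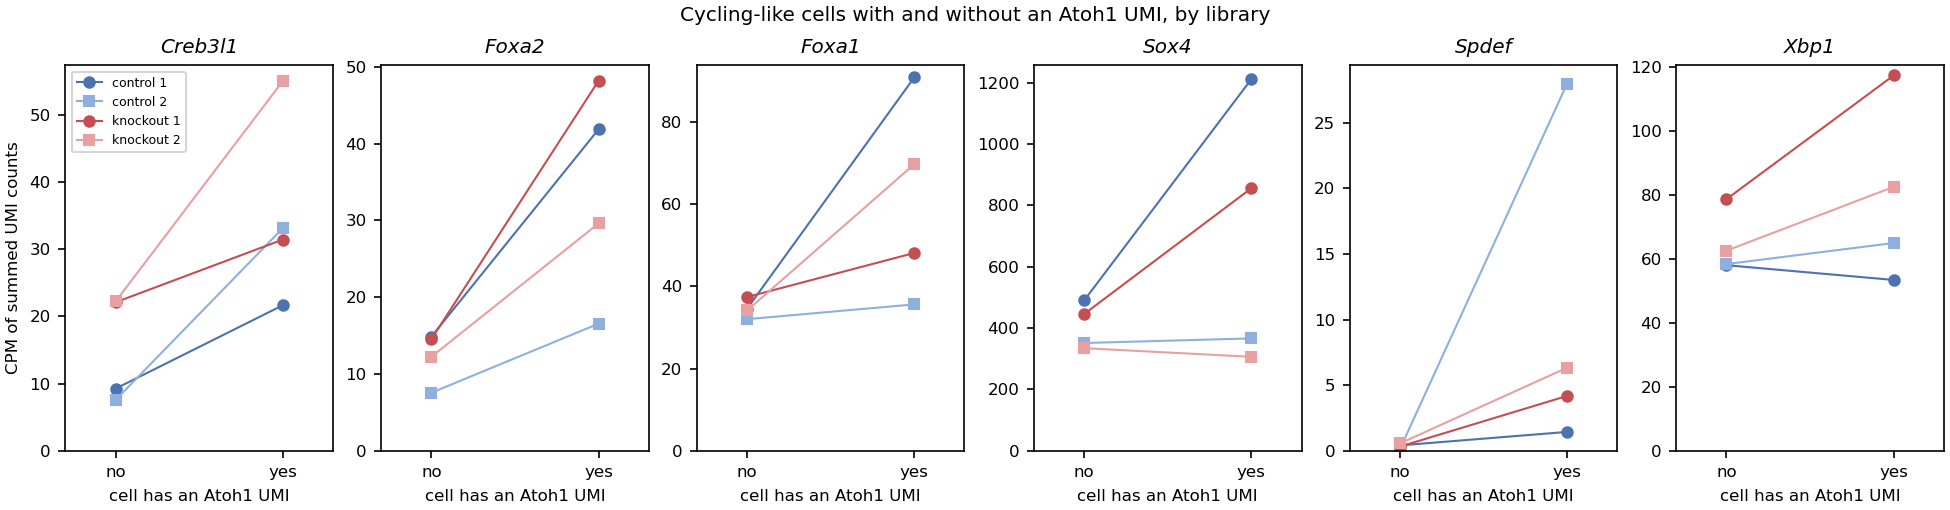
CPM of summed UMI counts (linear axis from 0) in cycling-like cells without and with an Atoh1 UMI for 6 factors; each line is 1 library. Creb3l1, Foxa2 and Foxa1 rise in all 4 libraries, Sox4 only in those of mouse 1, and the Spdef rise is largest in control 2, at 28.0 CPM.

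Other genes of the secretory programme were read from 4 lists. Of 25 genes for secretory capacity of the endoplasmic reticulum, 6 rose and none fell in knockout cycling-like cells with the block, with a list median log2 fold change of 0.17 against -0.0018 for all genes tested, and with 6.6% of all genes called. Hspa5, the main chaperone of that compartment, was at 287, 253, 387 and 362 CPM there (0.44 ± 0.07, adjusted p 0.00096, edgeR, block), and Pdia6, Hsp90b1 and Creld2 also rose, by 0.42, 0.37 and 0.37 on the log2 scale. In goblet-like cluster 10, 9 of the 25 rose and none fell, where 2.11% of all genes were called, among them Kdelr3, Creld2, Sdf2l1 and Hspa5, whose values were 586, 609, 907 and 983 CPM. Creb3l1 and Hspa5 thus were both higher in both knockout libraries in these cells. In stem-like cells 4 of 24 rose and none fell, where 2.37% of all genes were called. Over the whole goblet-like class 7 of 25 rose and 1 fell, where 16.7% of all genes were called. In cluster 11 it was 1 and none, beside 2.62%. Summed over all cells 1 rose and 3 fell, where 11.9% of all genes were called. In the other classes fitted no gene of this list was called. All these calls are with the block, and with group alone no gene of the list was called between knockout and control.

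Secreted products were mostly lower in knockout cycling-like cells. Of 12 Paneth products, 10 were tested in cycling-like cells, where 6.6% of all genes were called with the block. Of these 10, 6 fell and none rose, with a median of -1.07. Lyz1 there was at 90.7, 171, 53.9 and 67.1 CPM, and Defa24 fell by 1.41 on the log2 scale. Of 16 goblet products, 10 were tested in cycling-like cells, and 5 fell and 1 rose; Fcgbp fell by 2.30 and Tff3 by 1.72 on the log2 scale. In goblet-like cells 9 goblet products fell and 1 rose of 14 tested, and 10 Paneth products fell of 11 tested, where 16.7% of all genes were called. Fewer fell within its clusters, whose mix differed between groups. In cluster 10, where 2.11% of all genes were called, 2 goblet products rose and 4 fell of 14 tested, and no Paneth product was called of 10 tested. Among them Clca1 and Agr2 rose, by 2.07 and 1.51 on the log2 scale, and Ccl6 and Fcgbp fell, by 1.39 and 0.75. In cluster 11, where 2.62% of all genes were called, 1 goblet product rose and 4 fell of 14 tested, and 5 Paneth products fell of 10 tested. Fcgbp, a mucus protein, fell by 0.99 on the log2 scale in cluster 11 with the block, where no gene was called with group alone. Over the whole goblet-like class it was at 1516, 1880, 861 and 664 CPM and was also called with group alone (adjusted p 0.025, edgeR). Muc2, the main gut mucin, was at 885, 1289, 699 and 1199 CPM in goblet-like cells and was called with the block (-0.32 ± 0.09, adjusted p 0.0070, edgeR). Within the clusters it was not called and did not fall in both mice, at 358, 553, 379 and 864 CPM in cluster 10 (adjusted p 0.24, edgeR, block) and at 1500, 1530, 1407 and 1689 CPM in cluster 11 (adjusted p 0.94, edgeR, block). The summed level of the 9 Paneth markers in cycling-like cells was 945, 1235, 490 and 499.5 CPM; the part of free RNA in the product UMIs of cycling-like cells was not tested.

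Of 17 genes of the upstream fate switch, 14 were tested in cycling-like cells, where 6.6% of all genes were called with the block. Of these 14, 3 fell, namely Notch1, Hes1 and Elf3, by 0.38, 0.33 and 0.28 on the log2 scale. Atoh1 itself was not called in any class. It was at 3.30, 2.97, 2.03 and 1.51 CPM in cycling-like cells (adjusted p 0.14, edgeR, block) and at 140, 136, 132 and 121 CPM in goblet-like cells (adjusted p 0.16, edgeR, block). In goblet-like cells 1 gene of this list rose and 4 fell of 14 tested with the block, where 16.7% of all genes were called. In cluster 10 it was 1 and 1 of 14, beside 2.11% of all genes, and in cluster 11 none of 12, beside 2.62%. Neurog3, the switch of the endocrine fate, rose in goblet-like cells, from 0.450 and 0 CPM to 11.1 and 9.22 CPM, and was also called with group alone (adjusted p 0.025, edgeR). Bhlha15, Kit and Sox9 were among those that fell in goblet-like cells, by 0.62, 0.58 and 0.55 on the log2 scale.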

How the data were processed

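UMI counts per gene and cell barcode were used as deposited; the authors made them with Cell Ranger 3.0.1 on mm10, per the submitters' processing notes, and the annotation release and strand setting are not given in the sources used here. The 10 members and the gene lists were chosen with earlier results of these data known. Barcodes with under 500 genes were removed, and so were the 70 barcodes with the highest Scrublet scores, at a share that rose in proportion to the barcodes of a library, because the automatic cut marked only 23 barcodes. Counts were scaled to 10000 per cell and logged; the 2000 most variable genes, less 3 members among them, gave 30 principal components, 15 neighbours and Leiden clusters at resolution 1. The partition of highest modularity out of 50 starts was kept, a choice made after seeing the data. A cluster was named from the marker list with the highest mean scaled level, at least 0.5, with 3 or more markers detected. The name was dropped if another list had more genes among the 10 leading genes. It was also dropped if no leading gene was of its own list and its median depth was under 0.333 of that of its libraries. Unnamed clusters held 187, 78, 319 and 341 cells in control 1, control 2, knockout 1 and knockout 2. These cells are in no class and count only in sums over all cells.

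UMIs were summed per library and class, for classes with 10 or more cells in every library, and fitted over all genes with edgeR 4.0.16 (R 4.3.3; quasi-likelihood test, TMM scaling, filterByExpr, two-sided, Benjamini-Hochberg threshold 0.05), with group as the only term. The fits recovered known changes in simulated counts. Those were larger than the changes of the factors called in goblet-like cells, and smaller ones were not simulated. Libraries with the same number share a mouse, per the tags on the deposited tables, and their deviations from the group mean correlated at 0.66 over all cells and from 0.067 to 0.55 within classes. The fit with that number as a replicate block is given wherever it changes a call. In the interaction fits library and class were terms, and in the Atoh1 fit library was a term. DESeq2 1.42.0 was an alternative. Nothing in the labels says how many cultures each library holds. Named genes were the 10 members, Cbl, Cblb, Atoh1, Muc2, Lyz1 and Hspa5, up to 4 called genes of each list with the largest change, and the 3 genes most correlated with each member on log2(CPM + 1) among genes with at least 20 CPM in at least 1 sum. Intervals and limits for counts of 0 (3 counts) cover counting error only.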

Additional observations from a re-analysis of the deposited data

Results flagged for a closer look

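The difference between knockout and control differed between classes for 3 factors, by the interaction term with the replicate block (edgeR, adjusted over all genes). Creb3l1 had a smaller rise in goblet-like than in cycling-like cells, with a difference of -0.68 ± 0.16 (adjusted p 0.0029). The mix of goblet-like clusters differed between knockout and control, and its part in this difference was not tested. Sox4 differed by 0.58 ± 0.09 for the same 2 classes (adjusted p 3.3e-06) and by 0.99 ± 0.29 between goblet-like and enterocyte-like cells (adjusted p 0.035); without the block and with 1 library left out these were as low as 0.16 (without knockout 1, adjusted p 0.92) and 0.33 (without control 1, adjusted p 1). Spdef differed by 1.61 ± 0.44 between goblet-like and cycling-like cells (adjusted p 0.016), a value that became -0.13 without control 2.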

How the results depend on the processing

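The number of factors called moved with the replicate block from 0 to 1 in all cells, stem-like cells, cycling-like cells and in goblet-like minus enterocyte-like cells, and from 0 to 3 in goblet-like cells and in goblet-like minus cycling-like cells; the block changed no other count. Under DESeq2 with replicate block it was 1 in all cells (Creb3l1) and 1 in cycling-like cells, where DESeq2 without it also gave 1. With no doublets removed, the block gave 2 in all cells, 1 in stem-like, 1 in cycling-like and 3 in goblet-like cells. Those 3 were Creb3l1, Creb3l4 and Klf4, against Creb3l1, Creb3l4 and Sox4 in the main clustering. With members kept among variable genes, it gave 3 in goblet-like cells and 1 each in enterocyte-like, cycling-like and stem-like cells. Leiden resolution 0.6 with the block gave 1, 1 and 4 in stem-like, cycling-like and goblet-like cells, and resolution 1.5 gave 1 and 1 in stem-like and cycling-like cells. Without a filter, cycling-like cells gave 1, goblet-like minus cycling-like cells 3 and the Atoh1 split 6 factors. Leaving out 1 library gave 0 to 1 factors in cycling-like cells, 0 to 2 in cluster 10, 0 to 4 in goblet-like minus cycling-like cells and 2 to 4 in the Atoh1 split.

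Creb3l1 in cycling-like cells kept its direction under every alternative run, from 1.07 to 1.25. Sox4 in goblet-like cells ranged from -0.30 to 0.82 when 1 library was left out, reversing without knockout 1 and also with members kept among variable genes (-0.11, and -0.15 with the block). At Leiden resolution 1.5 goblet-like cells numbered 124 instead of 676, and Creb3l1 was -0.25 (-0.076 with the block) and Creb3l4 0.19 (0.31 with the block). Spdef in goblet-like minus cycling-like cells ranged from -0.13 (without control 2) to 2.34 (without control 1) when 1 library was left out. The cause was not tested. The count of 7 factors highest in goblet-like cells ranged from 5 to 7 over the alternatives. The Atoh1 split thinned to 5000 UMIs gave no value, since control 2 then had 0 cells with an Atoh1 UMI; regenerative-like cells under 3 of the clusterings, and tuft-like cells, had too few cells for a fit. Spdef and Gfi1 counts in cycling-like cells are small, at 5, 23, 6 and 11 UMIs for Spdef and 4, 8, 0 and 6 UMIs for Gfi1.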
